A study of Homo sapiens with 6 samples.

Results

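Proteasome subunit and assembly genes were followed in tumours grown from HT-29 cells, an established human colorectal adenocarcinoma line. The genes were taken by symbol: those starting with PSMA, PSMB, PSMC, PSMD, PSME, PSMF or PSMG and ending in a number, and POMP. PSMB8 and PSMB9, the inducible catalytic subunits, and pseudogenes were left out. The array annotation paired 41 such genes with a probe set of their own, out of 19775 genes in all, and each gene was read on whichever of its probe sets averaged highest across the 6 arrays. They are 7 genes of the 20S alpha ring, 8 of the 20S beta ring, 8 of the 19S base, 6 of the 19S lid, 4 activators and inhibitors and 8 assembly factors. Of 47 subunits and factors looked for, PSMA6, PSMB11, PSMC5, PSMD7, PSMD13 and PSME2 had no probe set of 1 gene and are not analysed here as members.

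In the study, HT-29 cells in 0.1 ml of suspension were injected into both femoral regions of Balb/c (nu/nu) mice aged 6 to 8 weeks. The treated tumours received 30 min of modulated electro-hyperthermia, a heating by an electromagnetic field, on day 18, and were taken 4 h later. The opposite-side tumours grew on the other flank of the treated animals and were not heated themselves, and the control tumours are labelled only as control xenografts. The RNA of each group was pooled from dissected frozen sections, and each of the 3 pools was measured on 2 technical arrays. There is therefore 1 biological sample a group, no test between conditions was possible, and every SD here is that of 2 arrays of the same RNA. The number of mice in a pool is not given in the sources used here. The arrays carry probes for human genes, while vessels, stroma and blood cells in such a tumour come from the mouse.

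The proteasome is the large protease that degrades proteins tagged with ubiquitin. Its 20S core is a barrel of stacked rings, with alpha subunits forming the gated ends and beta subunits carrying the catalytic sites inside. The 19S particle caps the barrel: its base holds the ATPases that unfold substrates, and its lid removes their ubiquitin. Dedicated assembly factors build the rings, and alternative activators can replace the 19S cap. Heat unfolds proteins and so adds to the load of this system, and tumour cells are known for their dependence on it.

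All values are log2 expression values, so that a difference of 1 is a 2-fold difference. A gene counted as detected in a comparison where a pool mean reached 5. Of the 41 members, 40 were detected, and PSMA8, the testis form of an alpha subunit, lay at the lowest value of the table (2.37) on all 6 arrays. Among detected genes the 2 arrays of a pool differed by a median of 0.05 to 0.06, and among detected members by 0.04 to 0.05. The widest gap between arrays of a pool was 0.30 for a member, for PSME3 in the treated pool. The heating itself was plain in the arrays: all 4 heat-inducible genes examined (HSPA6, DNAJB1, BAG3 and HSPH1) were more than 2-fold higher in the treated pool than in either other pool, and HSPA6, a heat-inducible HSP70 chaperone, read 4.88 and 4.82 on the control arrays, 8.69 and 8.73 on the treated arrays and 5.72 and 5.91 on the opposite-side arrays. Of 10 markers of colon epithelium 6 were detected, with KRT8, KRT18 and KRT20 between 12.14 and 13.40, while CDX1 (2.37) and CDX2 (2.53), defining transcription factors of this epithelium, and GPA33 (2.37) were not detected. Endothelial markers were not detected (0 of 4), and of 3 leukocyte markers measured only LYZ was, with PTPRC at 2.42 to 2.43. COL1A1 was the only fibroblast marker detected in all pools (1 of 6). It read 6.62 and 6.68 in control, 7.31 and 7.33 in treated and 7.16 and 7.14 in opposite-side tumours, and the log2 of the summed fibroblast level ran from 7.14 to 7.16 in control, 7.77 in treated and 7.62 to 7.64 in opposite-side arrays. The muscle gene ACTA1 read 3.03 and 3.18, 5.26 and 5.29, and 4.11 and 4.11 in the same order. The summed level of the 5 muscle markers was 6.07 to 6.09, 6.64 to 6.67 and 6.25 to 6.26, with MYL1 at 2.38 throughout. TNNT3, the muscle marker detected in all pools, read 5.44 on every array but the first treated one (5.55). The part of these markers in the proteasome values was not tested.

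No proteasome member differed by 2-fold between any 2 pools. The size rule (a difference of at least 1, no overlap between the arrays of the pools and the higher pool at or above 5) was met by 0 of 40 detected members in treated against control, in treated against opposite-side and in opposite-side against control tumours. Among all detected genes it was met by 0.722%, 0.335% and 0.404% in the same order, so with 40 genes a count of 0 lies near that background. On the probe sets in use the largest member differences were those of PSMD12, PSMD10 and PSMD8. PSMD12, a lid subunit, was 1.49-fold higher in treated and 1.65-fold higher in opposite-side than in control tumours. PSMD10, an assembly chaperone of the base, was 1.39-fold higher in treated tumours. PSMD8, a lid subunit, was 1.31-fold lower in treated tumours. A second probe set of PSMD12 differed from control by 0.26 in treated tumours and by -0.04, with overlap, on the opposite side. That of PSMD10 was 0.12 above control in treated tumours. In bulk RNA such differences do not tell a changed number of cells of a type from a changed amount of RNA per cell.

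The promoters of these 3 genes are shown because the genes stood farthest from control in the treated pool; each line gives the 250 bases before the RefSeq start site (GRCh38.p14), 5′ to 3′ on the gene's own strand, with matches to the searched motifs in capitals. The stretches lie at chr17:67366578-67366827 on the minus strand for PSMD12, chrX:108091543-108091792 on the minus strand for PSMD10 and chr19:38374321-38374570 on the plus strand for PSMD8.
PSMD12: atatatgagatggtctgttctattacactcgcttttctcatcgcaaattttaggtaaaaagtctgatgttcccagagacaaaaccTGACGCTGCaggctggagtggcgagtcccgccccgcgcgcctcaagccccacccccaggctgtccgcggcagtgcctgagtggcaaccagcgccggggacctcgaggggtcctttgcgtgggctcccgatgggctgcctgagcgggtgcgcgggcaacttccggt
PSMD10: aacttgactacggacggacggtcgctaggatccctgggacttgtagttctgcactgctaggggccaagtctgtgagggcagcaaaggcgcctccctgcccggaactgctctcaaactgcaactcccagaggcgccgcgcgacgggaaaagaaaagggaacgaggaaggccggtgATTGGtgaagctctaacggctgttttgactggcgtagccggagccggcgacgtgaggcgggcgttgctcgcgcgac
PSMD8: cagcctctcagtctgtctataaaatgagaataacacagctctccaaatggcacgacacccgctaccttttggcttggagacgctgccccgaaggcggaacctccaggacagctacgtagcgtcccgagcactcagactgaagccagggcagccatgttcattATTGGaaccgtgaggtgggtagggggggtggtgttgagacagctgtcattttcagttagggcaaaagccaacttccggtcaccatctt
The capitals in PSMD12 mark TGACNNNGC, the core of the antioxidant response element that NRF2 and its relative NRF1 bind, starting 165 bases before the start site on the printed strand. The capitals in PSMD10 and PSMD8 mark CCAAT, the box bound by the factor NF-Y, read on the other strand and starting 76 and 88 bases before the start site. Both strands of the 35 members with a RefSeq promoter entry were searched for these motifs and for the heat shock element in its strict form (GAA, 2 bases, TTC, 2 bases, GAA). The heat shock element matched 0 of 35 member promoters and 0.557% of the promoters of 27305 genes. TGACNNNGC matched 10 of 35 (28.6%) against 13.2% of all genes, in PSMA4, PSMB3, PSMD12, PSMD3, PSMD5, PSMD9, PSME1, PSME4, PSMG1 and PSMG2. CCAAT matched 15 of 35 (42.9%) against 37.0%. The genes with TGACNNNGC did not share 1 direction in treated against control tumours. PSMD12 was higher, PSMD3, PSME1 and PSMG2 were lower (PSME1 by 0.03), and the arrays of the other 6 overlapped. Of all detected genes 34.7% were higher and 40.5% lower without overlap, and the 10 genes were not tested against these shares. A match is a string of letters in this window and says nothing of a bound factor.

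In treated against control tumours the arrays did not overlap for 12 of 40 members that were higher (30.0%; all detected genes, 34.7%) and for 12 that were lower (30.0%; all detected genes, 40.5%). The split was 11 and 18 with quantile normalization (all detected genes, 36.7% and 39.4%) and 12 and 15 with equal spike-ins (all detected genes, 32.5% and 44.5%). Without the first treated array the split was 17 and 19. Fewer array pairs must then agree, so such counts can only stay or rise. The median difference over members was -0.0028, beside -0.016 over all detected genes, and the median size of a difference was 0.11 for members and 0.15 for all genes. A difference of at least 0.25 without overlap was found for 5 members (12.5%), beside 30.6% of all detected genes. A limma fit, which sets the pools against the error between arrays and so compares these RNA pools and not the conditions, gave an adjusted p below 0.05 to 12 members, 5 higher and 7 lower, and to 45.1% of all genes fitted.

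**Figure D1:**
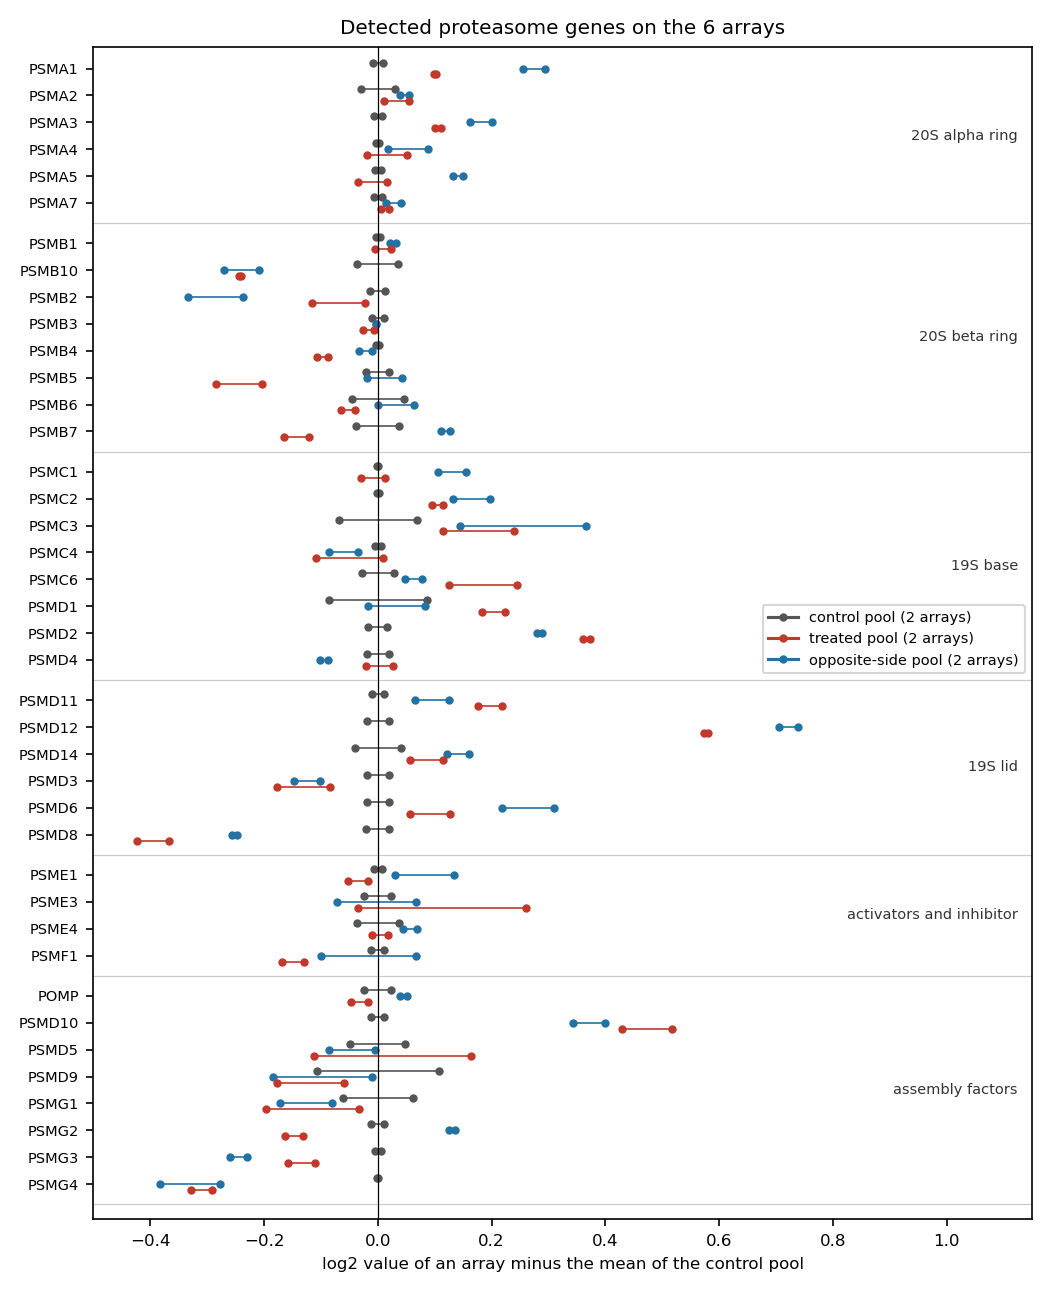
Each point is 1 array: its log2 value minus the mean of the control pool (x axis) for the 40 detected members (y axis), grouped by place in the proteasome, with a line joining the 2 technical arrays of a pool (grey control, red treated, blue opposite side). PSMD12 and PSMD10 lie farthest to the right and PSMD8 and PSMG4 farthest to the left; no point reaches 1 in either direction.

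Treated tumours read lower than the opposite-side tumours for 19 of 40 members (47.5%; all detected genes, 33.2%) and higher for 8 (20%; all detected genes, 38.6%). The median difference was -0.029 over members and 0.01 over all detected genes, and 3 members (7.5%) differed by at least 0.25 without overlap, beside 24.8% of genes. limma called 10 members, 1 higher and 9 lower, and 39.5% of all genes fitted. This comparison depends on the scaling of the arrays. The spike-in controls added to each sample read 0.33 higher in treated than in opposite-side arrays (median of the differences of 40 probe sets). Scaling to equal spike-ins used another measure, the median spike-in level of each array, so 0.33 is not the size of its shift. In treated against control tumours the spike-in difference was 0.105, but the scaling moved the median of all detected genes only from -0.016 to -0.03. In treated against opposite-side tumours the scaling moved that median from 0.01 to -0.18. The members then split into 0 higher and 35 lower with a median of -0.22, and all genes into 13.1% higher and 69.0% lower.

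Opposite-side tumours, which were not heated, read higher than control for 22 of 40 members (55.0%; all detected genes, 34%) and lower for 10 (25.0%; all detected genes, 42.4%). With quantile normalization 16 (40%) were higher, beside 39.2% of all detected genes, so the share of members was then that of the background. The median difference was 0.040 over members against -0.019 over all detected genes. Beside these values stand the control probe sets at the 5′ and 3′ ends of ACTB: the 5′ one was 1.28 higher on the opposite side and 1.12 higher in treated than in control tumours, the 3′ one 0.15 and 0.23. For GAPDH the 5′ one was 0.46 lower in treated than in control tumours, and the 3′ one -0.03. The part of this in the member values was not tested. A difference of at least 0.25 without overlap was found for 9 members (22.5%), beside 30.3% of genes, and limma called 15 members, 10 higher and 5 lower, and 45% of all genes. Equal spike-ins moved the median of all detected genes from -0.019 to 0.16; the members then split into 32 higher and 5 lower with a median of 0.21, and all genes into 65.7% higher and 17.3% lower. The treated and the opposite-side comparisons share the 2 control arrays, so their values for a member are not independent and are given side by side only.

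**Figure D2:**
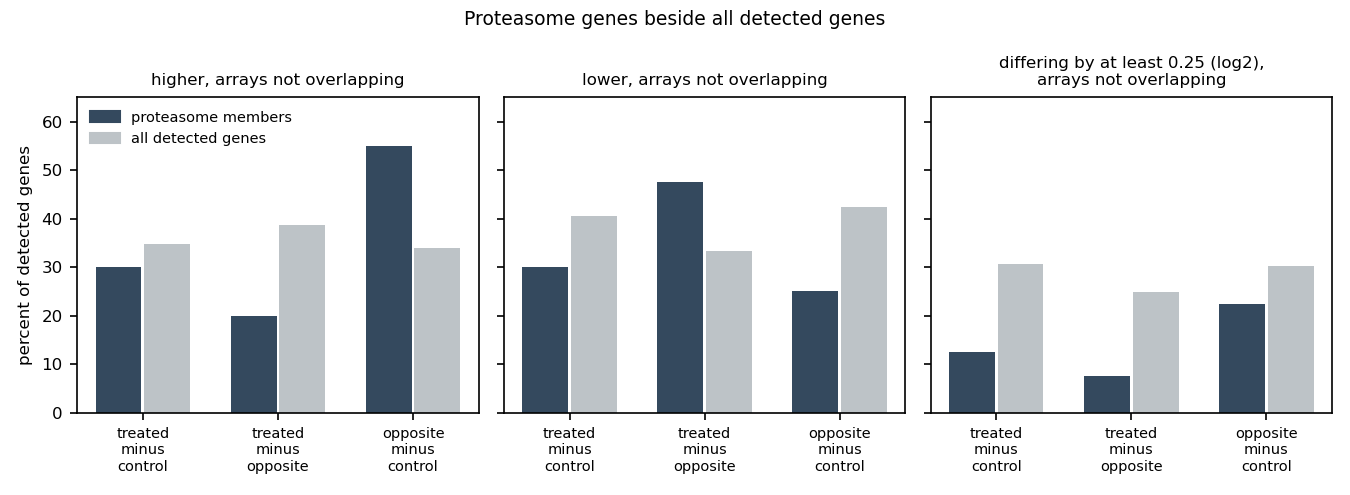
Bars give the percentage of the 40 detected proteasome members (dark) and of all detected genes (grey) that were higher without overlap of arrays, lower without overlap, or different by at least 0.25 log2 without overlap (left to right) in each of the 3 comparisons. Members were higher in opposite-side than in control tumours in 55.0% against 34%, which became 40% against 39.2% with quantile normalization. They were lower in treated than in opposite-side tumours in 47.5% against 33.2%. With equal spike-ins the counts were 32 and 35 of 40 members (80% and 87.5%), beside 65.7% and 69.0% of all detected genes. In the deposited values the share of members different by at least 0.25 was below that of all genes in all 3 comparisons. That share was not counted with equal spike-ins.

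By place in the proteasome each count rests on 4 to 8 genes, and is to be read against the shares of all detected genes that were higher and lower without overlap: 34.7% and 40.5% in treated against control, 38.6% and 33.2% in treated against opposite-side, and 34% and 42.4% in opposite-side against control tumours. With equal spike-ins these shares were 32.5% and 44.5%, 13.1% and 69.0%, and 65.7% and 17.3% in the same order.

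The subunits of the alpha ring, which gate the core, lay within 0.11 of control in the treated pool. There 2 of 6 detected subunits were higher without overlap and 0 lower (all genes, 34.7% and 40.5%), with a median of 0.02 that turned to -0.0062 with quantile normalization. Against the opposite side 0 were higher and 3 lower (median -0.06). All 6 were higher in opposite-side than in control tumours, by 0.03 to 0.28 (median 0.10). The counts of the last comparison were the same with equal spike-ins, where the median of all detected genes was 0.16.

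PSMA1 read 9.49 and 9.51 on the control arrays, 9.60 and 9.60 on the treated arrays and 9.75 and 9.79 on the opposite-side arrays. The 3 pools did not overlap, with treated tumours 0.10 above control and 0.17 below the opposite side, and the opposite side 0.28 above control. PSMA3 followed the same order at 7.95 and 7.94 in control, 8.06 and 8.05 in treated, and 8.11 and 8.15 in opposite-side tumours. PSMA5 read 8.22 and 8.21, 8.23 and 8.18, and 8.36 and 8.34 in that order, so that only the opposite side stood apart, by 0.14 from control and by 0.15 from treated. PSMA2, PSMA4 and PSMA7 differed from control by at most 0.05 in either pool. Their second probe sets did not all read the same way: that of PSMA2 was 0.37 above control and 0.30 above the opposite side in treated tumours, and that of PSMA7 was 0.11 above the opposite side, where the probe sets in use read -0.01 each.

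The beta ring, which carries the catalytic sites, held no subunit that was higher in treated than in control tumours without overlap (0 of 8), while 5 were lower (all genes, 34.7% and 40.5%), with a median of -0.08. Against the opposite side 1 was higher and 5 lower (median -0.05), a split that equal spike-ins turned into 0 and 7. Opposite-side against control gave 2 higher and 3 lower (median 0.0048, and -0.0135 without the first control array), and with equal spike-ins 6 higher and 2 lower.

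The 4 measured catalytic genes fell into different patterns. PSMB5, the chymotrypsin-like subunit that proteasome inhibitors such as bortezomib target, read 7.44 and 7.40 in control, 7.22 and 7.14 in treated and 7.46 and 7.40 in opposite-side tumours. The treated arrays lay below both other pools, by 0.24 from control and 0.26 from the opposite side, and the other pools overlapped. PSMB7, the trypsin-like subunit, read 8.89 and 8.81 in control, 8.73 and 8.69 in treated and 8.98 and 8.96 in opposite-side tumours. It was thus 0.14 lower in treated and 0.12 higher in opposite-side than in control tumours, and a second probe set for PSMB7 had the same signs, without overlap for the treated value and with overlap for the opposite side. PSMB6, the caspase-like subunit, read 8.26 and 8.36, 8.27 and 8.24, and 8.31 and 8.37, with treated and control arrays overlapping. PSMB10, which takes the place of PSMB7 in the immunoproteasome, read 6.95 and 7.03 in control, 6.75 and 6.75 in treated and 6.78 and 6.72 in opposite-side tumours. It was lower than control by 0.24 in both other pools, whose arrays overlapped.

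Among the structural beta subunits PSMB2 differed most. Its values were 8.20 and 8.23 in control, 8.19 and 8.10 in treated and 7.98 and 7.88 in opposite-side tumours, so that the opposite side was lowest, by 0.28 from control and 0.22 from treated tumours. The difference from treated tumours came to 0.03 with equal spike-ins. PSMB4 was 0.10 lower in treated than in control tumours, and its other probe sets read 0.41 lower near the detection level and 0.02 higher with overlap. PSMB1 and PSMB3 differed between any 2 pools by at most 0.03. A second probe set of PSMB1 read 0.04 lower in treated than in control tumours without overlap, where the one in use read 0.0085 higher with overlap, a sign that equal spike-ins turned to -0.0057.

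The 19S base had the highest median of the 6 places in treated against control tumours, 0.14. There 5 of 8 measured subunits were higher without overlap and 0 lower (all genes, 34.7% and 40.5%). Against the opposite side 4 were higher and 2 lower (median 0.05, and 0.01 without the first treated array), but with equal spike-ins 0 were higher and 7 lower (median -0.14), and with the mean of a gene's detected probe sets the median was -0.02. Opposite-side against control gave 5 higher and 2 lower (median 0.10), and 8 higher and 0 lower with equal spike-ins.

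PSMD2, a scaffold subunit of the base, read 8.77 and 8.81 in control, 9.15 and 9.16 in treated and 9.08 and 9.07 in opposite-side tumours. It was 0.37 above control in treated tumours (1.29-fold) and 0.28 in opposite-side tumours; the treated pool lay 0.08 above the opposite side, and 0.11 below it with equal spike-ins. PSMD1, the other large scaffold, read 7.98 and 7.81, 8.12 and 8.08, and 7.98 and 7.88 in the same order, with treated tumours 0.20 above control; the value of 0.17 above the opposite side became -0.02 with equal spike-ins. PSMC6, an ATPase of the base, was 0.18 above control in treated and 0.06 in opposite-side tumours. PSMC3, another ATPase, had wide gaps between arrays (6.39 and 6.25 in control, 6.56 and 6.44 in treated, 6.47 and 6.69 in opposite-side tumours) and exceeded control by 0.18 and 0.26. PSMC1 differed from control only on the opposite side, by 0.13 (8.25 and 8.26 in control, 8.36 and 8.41 on the opposite side), and was 0.14 lower in treated than in opposite-side tumours. PSMC4 lay 0.05 below control in treated tumours with overlap and 0.06 below it on the opposite side, where equal spike-ins gave 0.12 above.

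Second probe sets left 2 base subunits without a settled direction. PSMC2, an ATPase, read 8.20 and 8.20 in control, 8.31 and 8.29 in treated and 8.33 and 8.40 in opposite-side tumours on the probe set in use, 0.10 above control after heating. Its other detected probe set, at a lower signal, read 5.55 and 5.61, 5.15 and 5.09, and 5.59 and 5.69, so that it was 0.46 below control after heating. PSMD4, a ubiquitin receptor, read 9.39 and 9.35 in control, 9.39 and 9.35 in treated and 9.28 and 9.27 in opposite-side tumours on the probe set in use. Another probe set of PSMD4 was 0.19 below control and 0.27 below the opposite side in treated tumours and 0.08 above control on the opposite side, without overlap each time. Equal spike-ins also turned the PSMD4 values, from 0.10 to -0.09 in treated against opposite-side tumours and from -0.09 to 0.08 in opposite-side against control tumours.

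Between treated and control tumours the 19S lid held both the highest and the lowest difference among members. Of its 6 measured subunits 4 were higher and 2 lower (all genes, 34.7% and 40.5%), and none overlapped (median 0.09). The median was -0.014 when probe sets that can match several transcripts were passed over for genes that had another. In the lid this changed the probe set of PSMD11 only, while PSMD12 kept its own. In opposite-side against control tumours the counts were again 4 and 2 (median 0.12). Treated against opposite-side tumours gave 1 higher and 4 lower (median -0.10), and 0 and 6 with equal spike-ins.

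PSMD12 read 8.14 and 8.10 in control (8.12 ± 0.03, SD, n = 2 technical arrays), 8.69 and 8.70 in treated and 8.86 and 8.83 in opposite-side tumours. It was 0.58 above control after heating and 0.72 on the unheated side, and the treated arrays lay 0.14 below the opposite-side arrays. The 3 pools did not overlap, and on the probe sets in use PSMD12 was the only member past 0.5 in any comparison. Its second probe set gave another picture, with 7.09 and 7.13 in control, 7.36 and 7.37 in treated and 7.09 and 7.04 in opposite-side tumours. On that one the treated pool alone was high, by 0.26 over control and 0.30 over the opposite side, so the higher value after heating was seen on both probe sets and that of the opposite side on 1. The promoter of PSMD12 is among the 10 of 35 member promoters that hold TGACNNNGC. The part of this motif in the PSMD12 values was not tested.

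PSMD8 read 7.56 and 7.60 in control, 7.22 and 7.16 in treated and 7.33 and 7.34 in opposite-side tumours. The treated pool was lowest, 0.40 below control and 0.14 below the opposite side, and the opposite side was 0.25 below control. PSMD3 was also below control, by 0.13 in treated and 0.12 in opposite-side tumours; with equal spike-ins the opposite side was 0.05 above control. PSMD6 read 7.17 and 7.13 in control, 7.27 and 7.20 in treated and 7.46 and 7.36 in opposite-side tumours, highest on the unheated side by 0.26 over control. PSMD11 was 0.20 above control in treated and 0.10 in opposite-side tumours. The value of PSMD11 in treated against opposite-side tumours was 0.10, and -0.09 with equal spike-ins, and the arrays of its second probe set overlapped in all 3 comparisons. PSMD14, the deubiquitylating enzyme of the lid, was 0.09 and 0.14 above control.

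**Figure D3:**
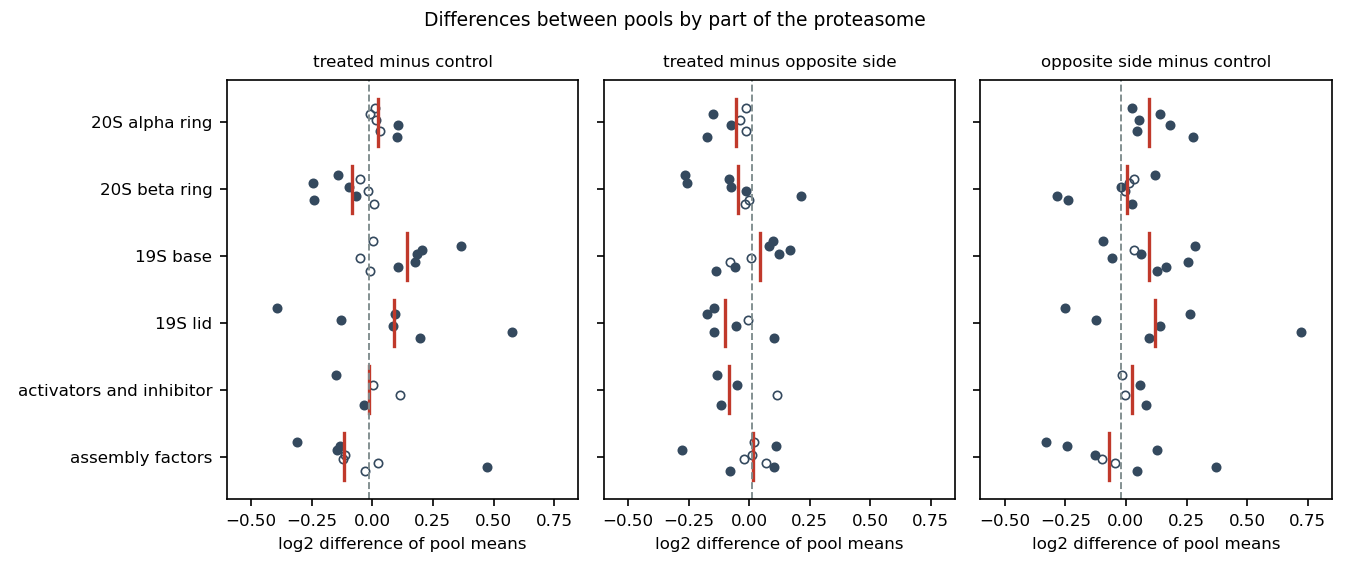
Points give the log2 difference of pool means (x axis) of each detected member by place in the proteasome (y axis), filled where the arrays of the 2 pools did not overlap and open where they did; red bars are the median of a place and the dashed line is the median of all detected genes. In treated against control tumours the base median is 0.14 and the assembly median -0.12; in treated against opposite-side tumours the base median of 0.05 and the assembly median of 0.02 turn to -0.14 and -0.17 with equal spike-ins, and the assembly median in opposite-side against control tumours turns from -0.07 to 0.10.

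Of the activators and the inhibitor, 0 of 4 were higher and 2 lower in treated than in control tumours without overlap (all genes, 34.7% and 40.5%). The median was -0.02, but 0.0068 without the first control array. It was 0.004 when probe sets that can match several transcripts were passed over for genes that had another. Against the opposite side 0 were higher and 3 lower (median -0.08, and -0.04 without the first opposite-side array). Opposite-side against control gave 2 higher and 0 lower, with a median of 0.03 that was -0.014 and 0.067 without the first and the second opposite-side array, and 4 higher with a median of 0.20 with equal spike-ins. PSMF1, a proteasome inhibitor protein, read 8.74 and 8.76 in control, 8.62 and 8.58 in treated and 8.81 and 8.65 in opposite-side tumours. Treated tumours were thus 0.15 below control and 0.13 below the opposite side, while a second detected probe set overlapped in all 3 comparisons. PSME1, a subunit of the interferon-inducible activator, read 8.44 and 8.42 in control, 8.38 and 8.42 in treated and 8.46 and 8.57 in opposite-side tumours. PSME2, also a subunit of that activator, had only a probe set shared with MIR7703, which is outside the counts above. That probe set was 0.45 above control in treated and 0.41 in opposite-side tumours, without overlap.

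PSME3, the nuclear activator of the same family, read 5.19 and 5.23 in control, 5.47 and 5.17 in treated and 5.28 and 5.14 in opposite-side tumours, near the detection level and with overlap in all 3 comparisons. Its treated value of 0.11 above control was -0.04 without the first treated array and 0.26 without the second. PSME4, a large activator that acts alone, read 7.20 and 7.13, 7.16 and 7.18, and 7.23 and 7.21 in that order. Other PSME4 probe sets were 0.41 and 0.11 below control in treated tumours, and 1 of them was 0.27 below control on the opposite side, where the one in use was 0.06 above.

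Among the assembly factors 1 of 8 was higher and 3 lower in treated than in control tumours (all genes, 34.7% and 40.5%; median -0.12, and -0.05 without the first treated array). Against the opposite side 2 were higher and 2 lower (median 0.02, and -0.07 without the second treated array), and with equal spike-ins 0 and 6. Opposite-side against control gave 3 higher and 3 lower, and 4 and 2 with equal spike-ins. Its median of -0.07 ran from -0.13 without the second opposite-side array to 0.0063 without the first control array.

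The 1 that was higher was PSMD10, also called gankyrin, a chaperone of base assembly studied as an oncoprotein. It read 6.74 and 6.76 in control, 7.18 and 7.27 in treated and 7.09 and 7.15 in opposite-side tumours, 0.47 and 0.37 above control. The treated arrays lay 0.10 above the opposite-side arrays, and 0.09 below them with equal spike-ins. Its second probe set had the same signs against control at a smaller size, 0.12 and 0.14. The other chaperones of the base did not follow: the arrays of PSMD5 and PSMD9 overlapped in all 3 comparisons.

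Of the factors that build the 20S core, PSMG2, PSMG3 and PSMG4 were below control after heating and the arrays of PSMG1 and POMP overlapped. PSMG4 read 8.90 and 8.91 in control, 8.61 and 8.58 in treated and 8.52 and 8.63 in opposite-side tumours, 0.31 and 0.33 below control, and a second probe set near the detection level differed from control by -0.66 and -0.40. PSMG3, its partner, read 8.54 and 8.55, 8.43 and 8.39, and 8.31 and 8.28, lowest on the opposite side; the treated pool was 0.11 above the opposite side, and 0.08 below it with equal spike-ins. PSMG2 read 10.50 and 10.52 in control, 10.34 and 10.38 in treated and 10.63 and 10.64 in opposite-side tumours, so that the treated pool was lowest (0.28 below the opposite side) and the opposite side highest. PSMG1, the partner of PSMG2, was 0.11 below control in treated tumours and 0.13 below it on the opposite side, where equal spike-ins gave 0.05 above. POMP, the maturation protein of the core, was within 0.05 of control in both pools, and 0.08 lower in treated than in opposite-side tumours.

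**Figure D4:**
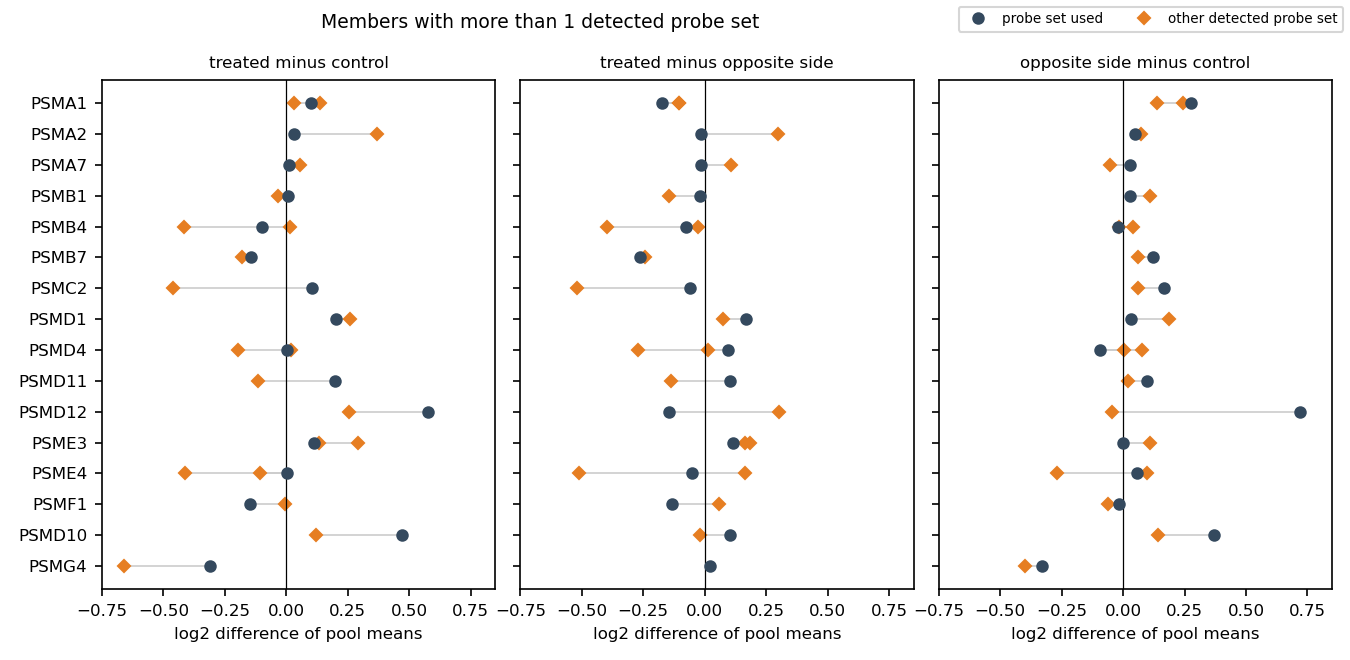
For the 16 members with a second detected probe set (y axis), the log2 difference of pool means (x axis) is shown for the probe set in use (dark circle) and each other detected one (orange diamond). PSMB7 and PSMA1 agree in sign in all 3 comparisons. PSMC2 has opposite signs in treated against control and PSMD4 in all 3, with the PSMD4 signs in the last 2 comparisons also turned by equal spike-ins. PSMD12 has opposite signs in treated against opposite-side and in opposite-side against control (0.72, and -0.04 with overlap). Signs also differ for other members, such as PSMD11 in treated against control (0.20, and -0.12 with overlap).

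How far the probe sets of a gene matched was counted over the 16 members with a second detected probe set (15 in treated against opposite-side tumours), each further probe set being a case. Between treated and control tumours 21 further probe sets were detected and 17 of them were free of overlap. Both probe sets were free of overlap in 9 cases, with the same direction in 8 and the opposite one in 1. In treated against opposite-side tumours it was 6 and 2 of 8 (20 detected, 12 free of overlap), and in opposite-side against control tumours 5 and 2 of 7 (20 detected, 8 free of overlap). Cases where the probe set in use overlapped are not in these counts of direction.

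Genes around the proteasome were read from a list of 31, of which 26 were measured. Between treated and control tumours 15 of 25 detected were higher and 5 lower without overlap (median 0.16; all genes, 34.7% and 40.5%). Treated against opposite-side tumours gave 13 and 8 of 25 (median 0.10; all genes, 38.6% and 33.2%), and opposite-side against control tumours 15 and 4 of 24 (median 0.07; all genes, 34% and 42.4%). Equal spike-ins turned the second of these splits into 6 higher and 13 lower (all genes, 13.1% and 69.0%). The third became 21 and 2 of 25 (all genes, 65.7% and 17.3%). ZFAND2A, a heat- and arsenite-inducible factor that associates with the proteasome, was the only one past the size rule, with 6.94 and 7.05 in control, 8.83 and 8.84 in treated and 7.30 and 7.28 in opposite-side tumours. It was 1.84 above control and 1.55 above the opposite side, while no subunit of the particle it binds reached 1. RAD23B, a shuttle that carries ubiquitylated proteins to the proteasome, was 0.76 above control in treated and 0.51 in opposite-side tumours.

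Among the transcription factors of proteasome genes, NFE2L2 (NRF2) read 7.72 and 7.55 in control, 8.20 and 8.15 in treated and 7.71 and 7.85 in opposite-side tumours, 0.54 above control and 0.39 above the opposite side in treated tumours. NFE2L1 (NRF1), which raises proteasome genes when the proteasome is inhibited, was 0.16 above control (6.73 and 6.82 against 6.96 and 6.90). NFE2L3 was 0.37 above control in treated and 0.44 in opposite-side tumours. UBA1, the main enzyme that activates ubiquitin, was 0.51 above the opposite side in treated tumours. UBQLN4, a shuttle, was 0.43 below control on the opposite side.

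The inducible catalytic subunit PSMB8, left out of the members, read 6.29 and 6.30 in control, 5.99 and 5.88 in treated and 6.54 and 6.37 in opposite-side tumours. It was 0.36 below control and 0.52 below the opposite side in heated tumours, larger than the difference of any beta subunit among the members. PSMB9, its partner in the immunoproteasome, lay at 2.50 on all 6 arrays and was not detected.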

How the data were processed

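RNA of 3 pools of HT-29 xenografts was measured on 2 technical Affymetrix arrays each, 6 in all. The deposited values are log2 expression values, and the submitters' processing notes name GCRMA with no version. GCRMA corrects background and normalizes arrays by quantiles, which removes overall shifts between pools. Their log2 scale was read from the values (highest 14.5). By the platform annotation 41097 of 54675 probe sets name 1 gene. The members and lists were chosen with earlier results of these data known. Genes named with array values were the 2 largest differences of each part and comparison, catalytic subunits, members whose probe sets had opposite signs, the 3 largest differences of the pathway list, PSMB8, PSMB9, NFE2L1 and NFE2L2; other members were named for the account.

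A pool of RNA is 1 sample, so pools were described by means and by overlap of the 4 array pairs. limma 3.58.1 (R 4.3.3) was fitted to 7267 detected genes against array error, with Benjamini-Hochberg adjustment, after a test on simulated data. Python 3.11.15, numpy 2.4.6 and pandas 2.3.3 did the rest. Alternatives were the detection level (4 or 6), the scaling, the choice of probe set, the minimum difference, the averaging, the left-out genes and leaving out each array. Arrays have no depth, and their number limits the precision.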

Additional observations from a re-analysis of the deposited data

Results flagged for a closer look

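The following 3 members stood on opposite sides of control in the 2 pools from treated animals, with no overlap of arrays. PSMB7 was -0.143 in treated and 0.1195 in opposite-side tumours, both minus control on the log2 scale. PSME1 was -0.0345 and 0.0815 in the same order, with its nearest treated and control arrays at 8.415 and 8.424. PSMG2 was -0.1475 and 0.13. These 2 differences share the control arrays, and the difference between them was not tested, since each pool is 1 sample. The share of all detected genes with this pattern was not counted, so the 3 members cannot be set against a background.

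PSMA6 and PSME2 were read only on probe sets that the annotation assigns to 2 genes and that entered no comparison of members. The probe set shared by MIR7703 and PSME2, a subunit of the interferon-inducible activator, was 0.4515 above control in treated tumours (8.92 and 8.98 in control, 9.37 and 9.43 in treated) and 0.409 above control in opposite-side tumours. A probe set shared by PRORP and PSMA6, an alpha ring subunit, was 0.165 above control in treated and 0.1915 in opposite-side tumours, without overlap of arrays. A second probe set of that pair of genes, under the detection level, read 0.19 lower in treated than in control tumours.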

How the results depend on the processing

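With 1 pool a group the spread shown is that of arrays, and no alternative adds a biological replicate. The count of members past the size rule (0 in each comparison) became 1 in treated against control and in opposite-side against control at a minimum difference of 0.5, and 5, 3 and 9 at 0.25 (treated against control, treated against opposite-side, opposite-side against control). limma called 12, 10 and 15 members in that order without a replicate block and 12, 9 and 14 with the array number as a replicate block. The deviations of same-numbered arrays correlated at 0.024 (control and treated), 0.0058 (control and opposite-side) and 0.0082 (treated and opposite-side). Whether arrays of the same number were run together is not given in the labels. Leaving out 1 array at a time gave 14 to 19 members lower in treated than in control tumours. With fewer array pairs to agree, a count without overlap can only stay or rise. The share of all detected genes was not counted in that setting.

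The median over members in treated against control tumours (-0.0028) was -0.024 with quantile normalization, -0.017 with equal spike-ins, -0.0095 without _x_at and _s_at probe sets, -0.025 with the mean of detected probe sets and -0.019 to 0.0005 when 1 array was left out. Here and below, leaving out _x_at and _s_at probe sets applied only to genes that had another probe set, and other genes kept theirs. Equal spike-ins gave 0 higher and 35 lower members in treated against opposite-side tumours (median -0.22), beside 13.1% and 69.0% of all detected genes. In opposite-side against control tumours 5 were lower (median 0.21), beside 17.3% of all detected genes. Without _x_at and _s_at probe sets treated against opposite-side tumours gave 5 higher and a median of -0.053, and leaving out 1 array a median of -0.067 to -0.015.

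Of 51 differences of named members, 18 had the other sign under at least 1 alternative (37 of 510 alternative values), as had 8 of the 18 medians by place. For 9 of these 18 differences the arrays of the pools did not overlap in the deposited values. In treated against control these were PSMF1 (0.127 without _x_at and _s_at probe sets, on a probe set under the detection level) and PSMC2 (-0.46 in that setting, -0.18 with the mean of probe sets). In treated against opposite-side they were PSMD1 (-0.019), PSMG3 (-0.078) and PSMD4 (-0.093) with equal spike-ins, PSMD12 (0.079) and PSMD4 (-0.054) with the mean of probe sets, and PSMF1 (0.173) and PSMD4 (-0.0135) without _x_at and _s_at probe sets. In opposite-side against control they were PSME4 (-0.039) with the mean of probe sets and PSMD4 (0.081 with equal spike-ins, 0.065 without _x_at and _s_at probe sets). The cause was not tested.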
